A study of Mus musculus with 2 samples.

Results

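The genes described here are 10 mediators of interleukin-1 (IL-1) and inflammatory myeloid biology, namely Il1b, Il1a, Il1rn, Nlrp3, Il18, Ptgs2, Cxcl1, Cxcl2, Cd14 and Nos2. They were chosen by symbol, and all 10 were present among the 32285 genes of the count matrices. Their transcripts were counted in single cells, by droplet-based RNA sequencing, in tumours that grew for 14 days from inoculated MC38 cells, a colon adenocarcinoma line of the mouse. One library came from wild-type mice (WT) and one from mice of the Ifnar1-SA genotype, named for Ifnar1, the gene of a receptor subunit for type I interferon. The labels list no treatment for either group and do not spell out SA, the sex or age of the mice, or how many animals each library holds. They name the material as tumour-infiltrating immune cells and also as CD8 T cells, while the libraries held myeloid cells, T cells and tumour-like cells. The question the design poses is how each gene's level in monocytes, macrophages and tumour-like cells compared between the genotypes.

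IL-1 signalling starts when macrophages and monocytes that sense microbial or damage signals transcribe Il1b and Il1a. The IL-1β precursor, like that of IL-18, is cut to its active form by caspase-1 in inflammasomes such as the one built on NLRP3, so a transcript level says nothing of how much active cytokine was released. IL-1 receptors, like the receptors that CD14 serves, act through NF-κB, which drives transcription of cytokines, of CXC chemokines that attract neutrophils and of the enzymes COX-2 and inducible nitric oxide synthase. In tumours these products are known from infiltrating myeloid cells as well as from tumour and stromal cells.

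Cells were assigned by gates on UMIs (unique molecular identifiers, the tags by which captured transcripts are counted). Barcodes with fewer than 1000 UMIs, fewer than 500 genes or more than 10% mitochondrial UMIs were dropped, which left 4058 WT and 5001 Ifnar1-SA cells from libraries with 55497066 and 62732220 UMIs in all droplets. Gated cells also had fewer than 2 UMIs of the T cell genes Cd3e, Cd3g and Trac. The monocyte gate (at least 2 UMIs of Ly6c2, at least 10 of Lyz2, and fewer than 20 of the complement genes C1qa, C1qb and C1qc together) held 161 WT and 246 Ifnar1-SA cells. The macrophage gate (at least 20 C1q UMIs) held 1298 and 1659 cells. The tumour-like gate (at least 10 UMIs of Rhox5, Tm4sf1 and Sdc2 together) held 179 and 201 cells. The median depth per cell was 6444 and 4820.5 UMIs in the monocyte gate, 11536.5 and 10292 in the macrophage gate, and 50442 and 49798 in the tumour-like gate.

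The myeloid gates carried their defining markers. Ly6c2, which the gate itself uses, stood at 4365 (WT) and 4935 (Ifnar1-SA) CPM in monocytes, where CPM are UMIs of the gene scaled to a gate total of 1000000. Ccr2, which the gate does not use, stood at 648 and 794 CPM. In the tumour-like gate the immune marker Ptprc stood at 7.75 and 9.53 CPM, against 521 and 570 CPM in the monocyte gate. The epithelial markers Krt18 and Epcam had 0 UMIs there in both libraries, Krt8 had 0 and 1 and Cdh1 0 and 3. Of 7 fibroblast markers the collagen gene Col3a1 was highest, at 1862 and 1706 CPM. Dcn stood at 690 and 537 CPM, Col1a1 at 114 and 22.8, and Pdgfra at 72.1 and 75.1. Lum stood at 19.4 and 10.0 CPM, Pdgfrb at 10.7 and 8.86, and Col1a2 at 2.55 and 2.98. The label "tumour-like" therefore rests on Rhox5, Tm4sf1 and Sdc2 and not on epithelial genes. MC38 cells come from the inoculated line, so in this gate the genotype is that of the host mouse.

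The libraries also differed in ways that touch the results. In the monocyte gate 44 of the Ifnar1-SA cells and 0 of the WT cells carried UMIs of Y-linked genes and none of Xist, and in the macrophage gate the numbers were 208 and 0, so Ifnar1-SA cells came from mice of both sexes and WT cells with sex-linked UMIs came almost all from females. In the monocyte gate the summed neutrophil markers stood at 242 CPM (WT) and 52.2 CPM (Ifnar1-SA), of which 203 of 209 WT UMIs of S100a8 and S100a9 lay in 1 cell, and the dendritic cell markers at 67.8 and 11 CPM, with Cd209a at 47 and 0 UMIs. Without cells with 5 or more S100a8 and S100a9 UMIs the same 3 genes named below were past 1.5-fold in this gate, while the part of the dendritic cell markers was not tested.

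The marker lists of the gates themselves also differed. In the macrophage gate the 7 monocyte markers summed to 1101 CPM in WT against 1630 in Ifnar1-SA, with Ly6c2 at 424 and 740 CPM and Chil3 at 59.1 and 17.5 CPM, and none of the 7 at 0 UMIs. The 8 macrophage markers summed there to 44528 and 40880 CPM, with Mrc1 at 183 and 92.6 CPM, and the 7 fibroblast markers to 100.1 and 193 CPM. In the monocyte gate the macrophage markers summed to 8909 and 11851 CPM, with none at 0, and the fibroblast markers to 9.04 and 38.9 CPM, with Lum, Pdgfra and Pdgfrb at 0 in both libraries. In the tumour-like gate the macrophage markers summed to 566 and 379 CPM and the fibroblast markers to 2769.5 and 2363 CPM, with none at 0. The part of these differences in the levels of Cd14, Cxcl2 and the other genes was not tested, apart from the C1q bins given below.

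Between the libraries 7 kept barcodes were shared, 3 of the WT and 1 of the Ifnar1-SA barcodes of that set being in the macrophage gate and none in the others. Because each genotype is 1 library, no test was possible; "higher" and "lower" describe these libraries, and all intervals are 95% intervals that cover counting error only.

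A gene was counted as past 1.5-fold when its CPM ratio of Ifnar1-SA over WT was at least 1.5-fold either way and the interval excluded 1-fold. Only genes with at least 30 UMIs over both libraries and at least 20 CPM in either entered that count. In the monocyte gate 8 of the 10 genes entered; 2 (Cxcl2 and Cd14) were past 1.5-fold lower in Ifnar1-SA, against 2.73% of all 4950 genes, and 1 (Nos2) was past it higher, against 7.7%. Taken in either direction the background was 10.4% in that gate. In the macrophage gate 7 entered; the same chemokine and co-receptor, Cxcl2 and Cd14, were past it lower, against 1% of all 4994 genes, and none was past it higher, against 1.14%. In the tumour-like gate only Ptgs2 and Cxcl1 entered and neither was past it in either direction, against 1.43% of all 5610 genes, or 1.18% for lower alone and 0.25% for higher alone. The median log2 ratio of the genes that entered was -0.16 in the monocyte gate, -0.33 in the macrophage gate and -0.19 in the tumour-like gate, beside 0.09, 0.07 and 0.04 over all genes.

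**Figure D1:**
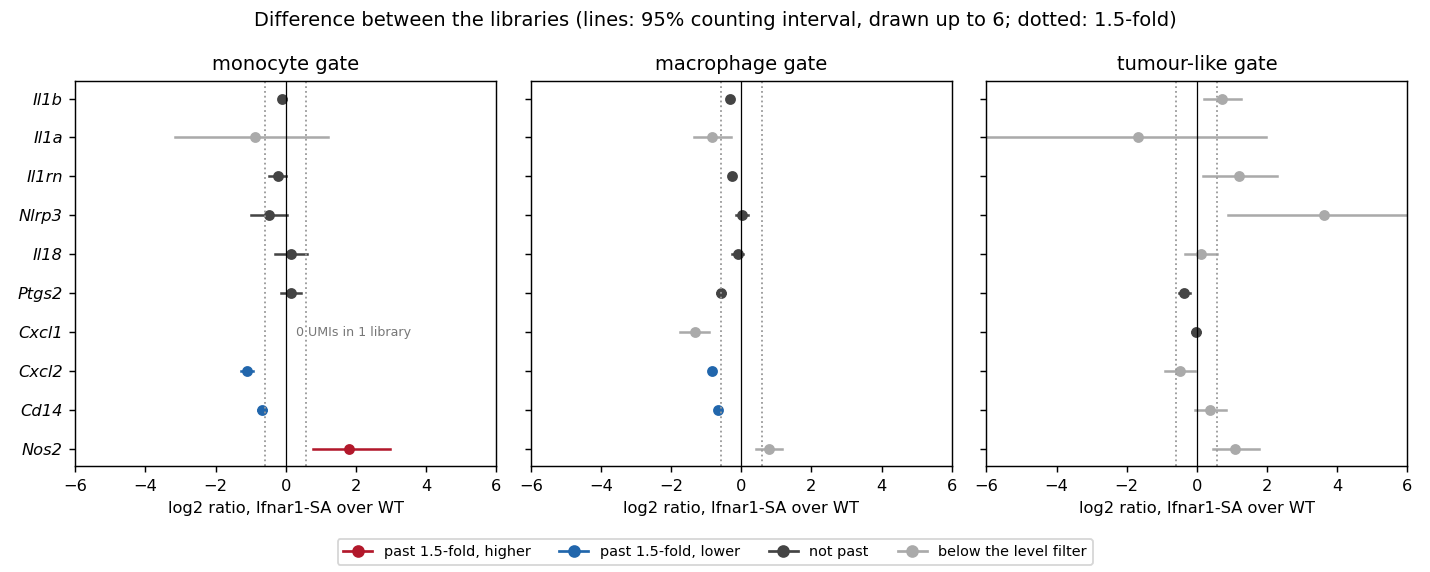
Log2 ratio of Ifnar1-SA over WT CPM for each of the 10 genes in the 3 gates. Points are ratios, lines are 95% counting intervals, dotted lines mark 1.5-fold, and grey points are genes below the level filter. Cxcl2 and Cd14 lie left of the dotted line in the monocyte and macrophage gates, at -1.10 and -0.68 and at -0.85 and -0.67.

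Il1b, which encodes the secreted cytokine IL-1β, was at a similar level in monocytes of both libraries and lower by less than 1.5-fold in Ifnar1-SA macrophages. In the monocyte gate it had 1976 (WT) and 2280 (Ifnar1-SA) UMIs, or 1787 and 1676 CPM, a log2 ratio of -0.09 (interval -0.18 to -0.01). In the macrophage gate it had 9762 and 8718 UMIs, or 594 and 472 CPM, a log2 ratio of -0.33 (interval -0.37 to -0.29). Monocytes held 3.01 times the macrophage level in WT and 3.55 times in Ifnar1-SA. Its UMIs were spread unevenly between cells: the median WT monocyte had 8.87 UMIs per 10000 and the highest 112, and the median WT macrophage 0.582 and the highest 112.

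Of all Il1b UMIs in kept cells, the monocyte gate held 12.1% (WT) and 13.1% (Ifnar1-SA), and the macrophage gate held 59.8% and 50.2%. Droplets that carried T cell UMIs without passing as T cells, which no gate includes, held 20.3% and 27.1%.

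Il1b was present in most monocytes. To compare shares of cells at equal depth, each cell was thinned to 2000 UMIs, and cells shallower than that were left out (5 WT and 16 Ifnar1-SA monocytes, 25 and 41 macrophages). At this depth 63.5% of WT (interval 55.4% to 71.0%) and 64.3% of Ifnar1-SA monocytes (57.8% to 70.5%) had an Il1b UMI, against 75.2% and 77.6% before thinning. In macrophages the thinned shares were 35.3% (32.6% to 38%) and 28.5% (26.3% to 30.8%), against 52.4% and 42.7% before thinning. Cells with T cell genes, which should lack Il1b, had it in 0.62% and 1.94% after thinning. Before thinning, at their own median depths of 5695.5 and 4968 UMIs, the shares were 2.46% and 3.54%. The shares of both myeloid gates lay above those of these T cells, which were chosen for few Lyz2 and C1q UMIs and so may understate free RNA. Droplets with 1 to 100 UMIs, whose content is mostly free RNA, held 238 CPM of Il1b in either library, below the CPM of both gates.

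Il1a, which encodes IL-1α, a form of the cytokine that can stay with the cell, was near the limit of detection. It had 6 and 4 UMIs in monocytes and 82 and 52 in macrophages, or 4.99 and 2.81 CPM in the latter, and fell below the level filter in every gate. The macrophage log2 ratio was -0.83 (interval -1.36 to -0.31), and 40.2% of the WT and 38.5% of the Ifnar1-SA macrophage UMIs lay in 5 cells. Droplets with 1 to 100 UMIs, whose content is mostly free RNA, had 2.40 and 1.48 CPM.

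Il18, the gene of a cytokine of the IL-1 family that acts on T and NK cells, differed little between the libraries. Monocytes had 75 and 102 UMIs, or 67.8 and 75 CPM, and macrophages 661 and 695, or 40.2 and 37.6 CPM. The log2 ratios were 0.14 (interval -0.30 to 0.59) and -0.10 (interval -0.25 to 0.06), and both intervals included 0. In tumour-like cells it was seen at 7.55 and 8.18 CPM, in 51 of 179 and 66 of 201 cells, which were the deepest cells of the data. T cells had 1.07 and 1.65 CPM and free RNA 16.6 and 21.5 CPM.

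Il1rn encodes the receptor antagonist that blocks IL-1 at its receptor, and it followed Il1b in its order of levels. Monocytes had 280 (WT) and 294 (Ifnar1-SA) UMIs (253 and 216 CPM), and macrophages 2074 and 1940 (126 and 105 CPM). The monocyte level was 2.01 times that of macrophages in WT and 2.06 times in Ifnar1-SA. The log2 ratio between libraries was -0.23 (interval -0.47 to 0.01) in monocytes and -0.27 (interval -0.36 to -0.18) in macrophages. After thinning, 16.6% of macrophages of either library had an Il1rn UMI. In a separate random draw of the thinning, the log2 ratio of the summed UMIs was -0.04 (interval -0.26 to 0.18). Before thinning the shares were 45.4% and 40.1%.

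Nlrp3, the gene of the inflammasome sensor, was a low transcript in both myeloid gates. Monocytes had 72 (WT) and 64 (Ifnar1-SA) UMIs, or 65.1 and 47.0 CPM, with a log2 ratio of -0.47 (interval -0.98 to 0.04). Macrophages had 562 and 643 UMIs, or 34.2 and 34.8 CPM, with a log2 ratio of 0.03 (interval -0.14 to 0.19). The monocyte interval reached both no difference and a difference beyond 1.5-fold, while the macrophage interval excluded 1.5-fold either way. With each cell thinned to 2000 UMIs the macrophage log2 ratio was -0.30, outside that counting interval. Its direction held in 12 of 17 alternative ways of processing. The thinned share of monocytes with a UMI was 17.3% (11.7% to 24.2%) in WT and 8.26% (5.05% to 12.6%) in Ifnar1-SA. In macrophages it was 7.07% (5.72% to 8.62%) and 6.49% (5.34% to 7.80%).

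**Figure D2:**
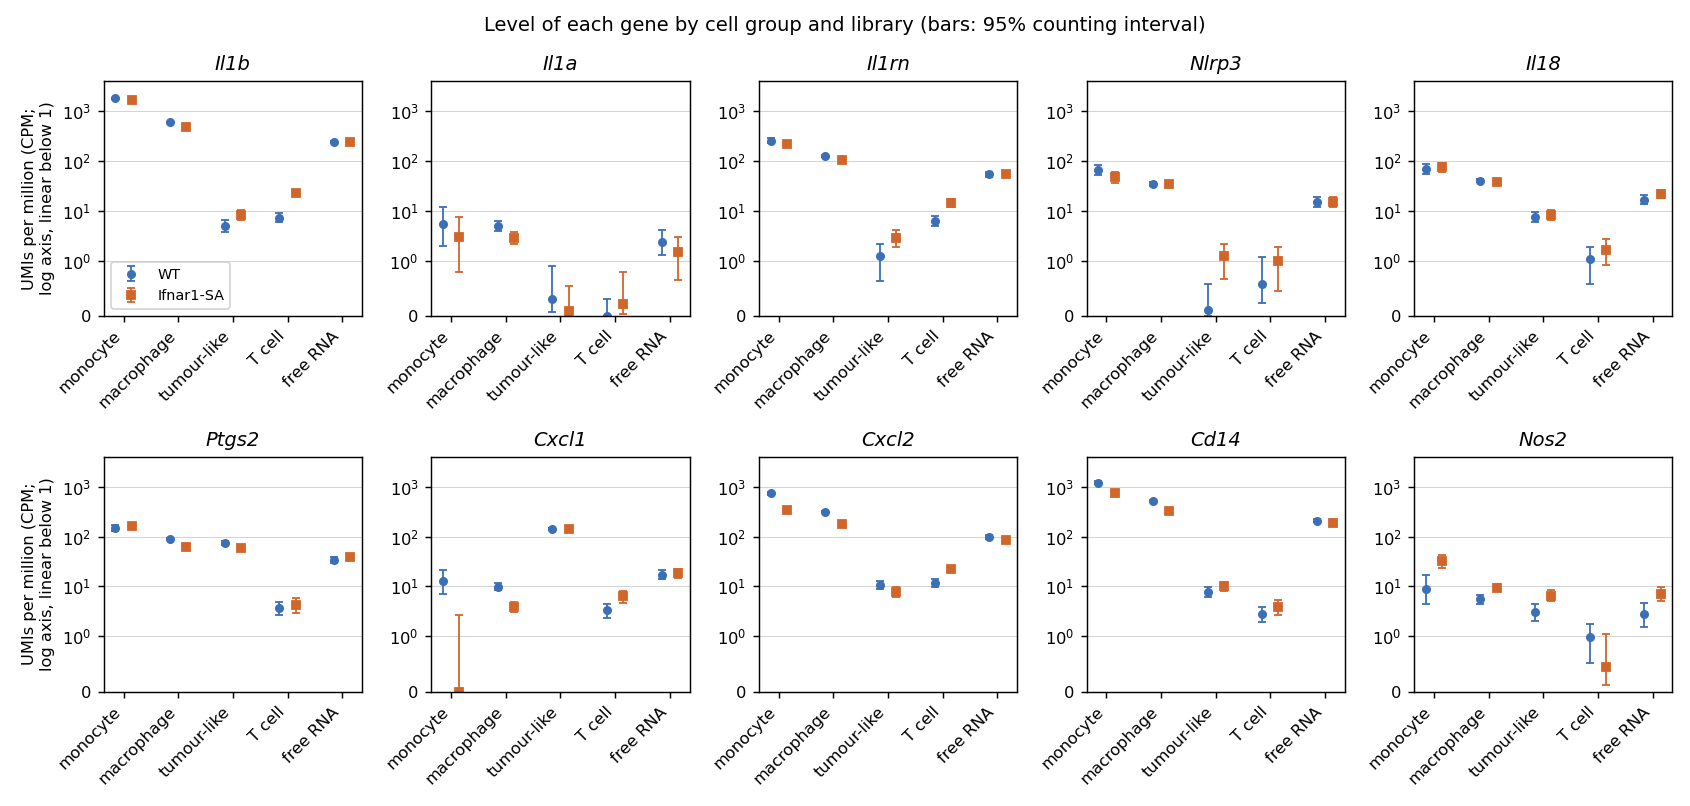
CPM of each gene in monocyte, macrophage and tumour-like gates, in T cells and in free RNA (droplets with 1 to 100 UMIs), for WT (circles) and Ifnar1-SA (squares). The axis is logarithmic above 1 and linear below it, and bars are 95% counting intervals. Cxcl1 is highest in tumour-like cells, at 140 and 139 CPM, and Il1b in monocytes, at 1787 and 1676 CPM.

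Cd14 encodes a membrane protein that hands bacterial lipopolysaccharide to Toll-like receptor 4, and it was lower in Ifnar1-SA in both myeloid gates. Monocytes had 1342 (WT) and 1029 (Ifnar1-SA) UMIs, or 1214 and 756 CPM. Macrophages had 8660 and 6106 UMIs, or 527 and 331 CPM. The log2 ratio was -0.68 (interval -0.80 to -0.56) in monocytes and -0.67 (interval -0.72 to -0.63) in macrophages, so Cd14 was 1.60 and 1.59 times lower. Monocytes held 2.30 times the macrophage level in WT and 2.29 times in Ifnar1-SA.

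The lower Cd14 sum was spread over many cells. The median macrophage had 2.27 Cd14 UMIs per 10000 in WT and 1.0 in Ifnar1-SA, while the 5 cells with the most Cd14 UMIs held 4.85% and 5.16% of the total. At least 10 UMIs per 10000 were found in 206 of 1298 WT and 158 of 1659 Ifnar1-SA macrophages. After thinning, 44.5% (41.7% to 47.2%) of WT and 31.9% (29.6% to 34.2%) of Ifnar1-SA macrophages had a Cd14 UMI, and 59.0% (50.8% to 66.8%) and 48.3% (41.6% to 54.9%) of monocytes. The intervals of the libraries did not overlap in macrophages and overlapped in monocytes. The share in T cells was 0.62% and 0.67%, and free RNA held 210 and 185 CPM.

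**Figure D3:**
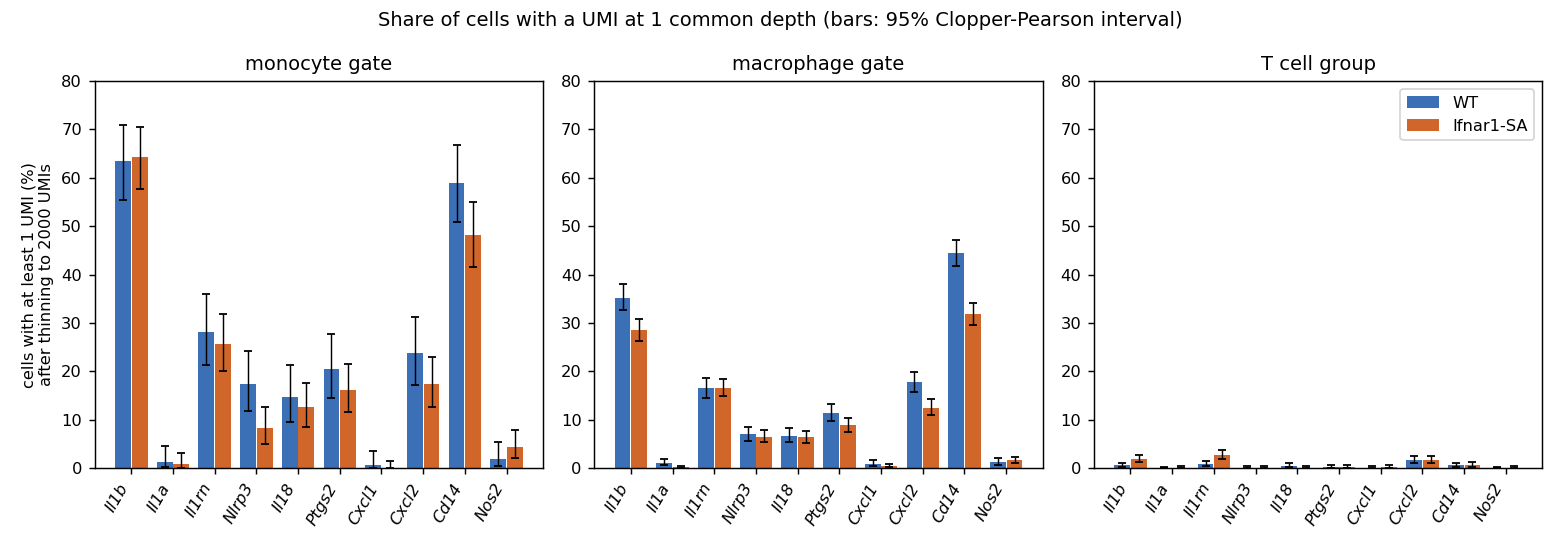
Share of cells with at least 1 UMI of each gene after thinning every cell to 2000 UMIs, in the monocyte and macrophage gates and in T cells, for WT (blue) and Ifnar1-SA (orange). Bars carry 95% Clopper-Pearson intervals. Cd14 is at 44.5% in WT and 31.9% in Ifnar1-SA macrophages, and every gene is under 3.8% in T cells, interval included.

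Cxcl1 and Cxcl2 encode chemokines that attract neutrophils through CXCR2, and their genes neighbour each other on mouse chromosome 5. Cxcl1 (ENSMUSG00000029380) spans 90891241 to 90893115 and Cxcl2 (ENSMUSG00000058427) spans 90903871 to 90905938 on the plus strand of GRCm38.p6, the assembly also named mm10. The stretches from 160 to 31 bases before each gene's RefSeq start site are shown because these neighbours share a promoter element yet differed in which cells held their transcripts. They are chr5:90891085-90891214 for Cxcl1 and chr5:90903739-90903868 for Cxcl2, plus strand, from RefSeq, and the capitals mark matches to the NF-κB (kappaB) consensus.
Cxcl1: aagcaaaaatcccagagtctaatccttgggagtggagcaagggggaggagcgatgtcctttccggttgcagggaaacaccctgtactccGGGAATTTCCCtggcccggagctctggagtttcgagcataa
Cxcl2: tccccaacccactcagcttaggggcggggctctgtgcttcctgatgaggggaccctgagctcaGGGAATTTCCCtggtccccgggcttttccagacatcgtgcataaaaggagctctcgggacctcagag

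The letters GGGAATTTCC start 71 bases before the Cxcl1 start site and 97 bases before that of Cxcl2. On either strand they occur within 250 bases before the start site in 28 of 32536 distinct RefSeq promoter windows, or 0.0861%. The letters were set as the site stands in Cxcl1 and Cxcl2, so their presence in both was fixed beforehand and this share is no test of it. The longest run the windows of these neighbours share, GGGAATTTCCCTGG, is 14 bases and holds that match. A match to the looser kappaB consensus, on either strand, was found in 3.92% of promoters, and of the other genes' windows only 1 of the 2 of Nlrp3 held one, 186 bases before its start. The windows of Il1b, Il1a, Il1rn, Il18 and Ptgs2 held no such letters. TATAAA, found in 12.3% of promoters, occurred 31 bases before the start of Il1b and 32 before that of Il1a on the gene's strand. Such matches describe the letters of these windows and not which factors were bound.

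Cxcl2 was a transcript of the myeloid gates and was lower in Ifnar1-SA in both. Monocytes had 811 and 467 UMIs, or 733 and 343 CPM, with a log2 ratio of -1.10 (interval -1.26 to -0.93). Macrophages had 5198 and 3249 UMIs, or 316 and 176 CPM, a log2 ratio of -0.85 (interval -0.91 to -0.78). Cxcl2 was thus 2.14 times lower in monocytes and 1.80 times lower in macrophages. Both counting intervals lay wholly beyond 1.5-fold, but they treat UMIs as independent and leave out the spread between cells.

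A few cells held a large part of the Cxcl2 transcripts. The 5 highest cells held 45.4% of the WT and 34.5% of the Ifnar1-SA monocyte UMIs, and 16.9% and 10.0% of the macrophage UMIs, and the median cell had 0 in every case. Leaving out those 5 cells in both libraries gave log2 ratios of -0.87 in monocytes and -0.73 in macrophages. Both ratios were still beyond 1.5-fold in size, and both lay outside the counting intervals given above. At least 10 Cxcl2 UMIs per 10000 were reached by 23 of 161 WT and 20 of 246 Ifnar1-SA monocytes, and by 120 of 1298 and 93 of 1659 macrophages. After thinning, 17.8% (15.7% to 19.97%) of WT and 12.5% (10.97% to 14.3%) of Ifnar1-SA macrophages had a UMI, with intervals that did not overlap, and 23.7% (17.3% to 31.2%) and 17.4% (12.7% to 22.9%) of monocytes, with intervals that did. T cells had it in 1.65% and 1.72%.

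Cxcl1 was found in the tumour-like gate, at the same level in both libraries. That gate held 1377 of the 1579 Cxcl1 UMIs of all kept WT cells and 1441 of the 1583 of Ifnar1-SA, or 87.2% and 91.0%, although it made up 4.41% and 4.02% of kept cells. Its level was 140 and 139 CPM, a log2 ratio of -0.02 (interval -0.13 to 0.09), and the interval excluded 1.5-fold. It was detected in 81 of 179 and 108 of 201 cells, and 5 cells held 43.2% and 34.1% of the UMIs. The tumour-like level was 14.3 times that of macrophages in WT and 35.6 times in Ifnar1-SA.

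In the myeloid gates Cxcl1 was below the level of free RNA, which held 17.2 and 18.2 CPM, while T cells had 3.29 and 6.27 CPM. Macrophages had 161 (WT) and 72 (Ifnar1-SA) UMIs, or 9.80 and 3.90 CPM, which is above the T cell level in WT and below it in Ifnar1-SA, with 57.8% and 52.8% of them in 5 cells. Monocytes had 14 UMIs in WT, all in 1 cell, and 0 in Ifnar1-SA. Cxcl2 showed the opposite order, with 10.8 and 7.80 CPM in tumour-like cells, of which 87.7% and 76.5% lay in 5 cells. In T cells Cxcl2 stood at 11.7 and 22.7 CPM.

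Ptgs2, which encodes the prostaglandin-forming enzyme COX-2, was present in all 3 gates. Monocytes had 165 (WT) and 225 (Ifnar1-SA) UMIs, or 149 and 165 CPM, macrophages 1495 and 1134, or 91.0 and 61.4 CPM, and tumour-like cells 727 and 602, or 74.1 and 58.0 CPM. The log2 ratio was 0.15 (interval -0.15 to 0.45) in monocytes, -0.57 (interval -0.68 to -0.46) in macrophages and -0.36 (interval -0.51 to -0.20) in tumour-like cells. In macrophages the gene was 1.48 times lower, just short of 1.5-fold, and it passed that limit in 4 of 13 other choices of cells.

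The highest Ptgs2 level was that of monocytes in both libraries. Monocytes exceeded macrophages by 1.64 times in WT and 2.69 times in Ifnar1-SA. Macrophages and tumour-like cells differed by 1.23 times in WT, with an interval above 1-fold, and by 1.06 times in Ifnar1-SA, with a log2 interval of -0.06 to 0.23. The thinned share of macrophages with a UMI was 11.5% (9.77% to 13.3%) in WT and 8.84% (7.50% to 10.3%) in Ifnar1-SA. T cells had 0.207% and 0.224%.

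Nos2, which encodes inducible nitric oxide synthase, was the only one of the 10 genes past 1.5-fold higher in Ifnar1-SA, and it was rare. Monocytes had 10 (WT) and 43 (Ifnar1-SA) UMIs, or 9.04 and 31.6 CPM, in 6 of 161 and 21 of 246 cells. The log2 ratio was 1.80 (interval 0.79 to 2.96). Nos2 entered the count of tested genes only through its Ifnar1-SA level, so any gene admitted in this way had to be higher there. After thinning, 1.92% (0.398% to 5.52%) of WT and 4.35% (2.10% to 7.85%) of Ifnar1-SA monocytes had a UMI, and the intervals overlapped.

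Outside the monocyte gate Nos2 stayed below the level filter, with higher values in Ifnar1-SA. Macrophages had 90 and 175 UMIs (5.48 and 9.47 CPM, log2 ratio 0.79, interval 0.42 to 1.17) and tumour-like cells 30 and 68 (3.06 and 6.55 CPM, log2 ratio 1.10, interval 0.46 to 1.77). In the tumour-like gate 70.0% and 67.6% of these UMIs lay in 5 cells. Free RNA differed in the same direction, with 2.77 and 7.04 CPM, while T cells had 0.988 and 0.440 CPM; the part of free RNA in the difference was not tested.

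Il1b and Il1rn stood in tumour-like cells below the T cell level, and Cd14 above the T cell level and far below that of free RNA. Il1b had 5.0 and 8.28 CPM there against 7.24 and 22.3 CPM in T cells, and Cd14 7.75 and 10.1 against 2.80 and 3.85 CPM. Of the Il1b UMIs of the gate 71.4% and 74.4% lay in 5 cells, and 12 cells of each library also passed the macrophage gate. After thinning, 1.68% and 1.49% of tumour-like cells had an Il1b UMI.

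The level of several genes changed with C1q content among cells with at least 10 Lyz2 UMIs, which were placed in 7 bins from 0 to 4 up to 200 or more C1q UMIs. Il1b fell from 1835 CPM in the lowest to 418 CPM in the highest bin in WT and from 1679 to 253 CPM in Ifnar1-SA. Cd14 fell from 1206 to 437 CPM and from 810 to 251 CPM. Deeper cells reach more C1q UMIs, and the median depth rose from 6393 to 14457 UMIs in WT and from 4842 to 14558 in Ifnar1-SA between these bins, so C1q content and depth cannot be told apart in this order.

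The difference between the libraries in Cd14 was seen in each C1q bin. Cd14 was lower in Ifnar1-SA in 7 of 7 bins, with an interval below 0 in 7, and Cxcl2 in 7 of 7 bins, with an interval below 0 in 6. Just outside the macrophage limit, at 10 to 19 C1q UMIs, Cd14 stood at 995 CPM in WT and 442 in Ifnar1-SA, and just inside, at 20 to 39, at 1081 and 729 CPM. Il1b was lower in 5 bins and higher in 2, and in those same bins on either side of the limit it was higher in Ifnar1-SA, at 1204 and 1452 CPM and at 1809 and 1922 CPM. Nos2 was higher in all 6 bins with WT UMIs, with an interval above 0 in 3; the remaining bin, with 15 WT and 25 Ifnar1-SA cells, had 0 and 12 UMIs. Ptgs2 was lower in 5 bins and higher in 2, and its ratio was lowest in the highest bin, at 73.6 and 41.0 CPM.

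**Figure D4:**
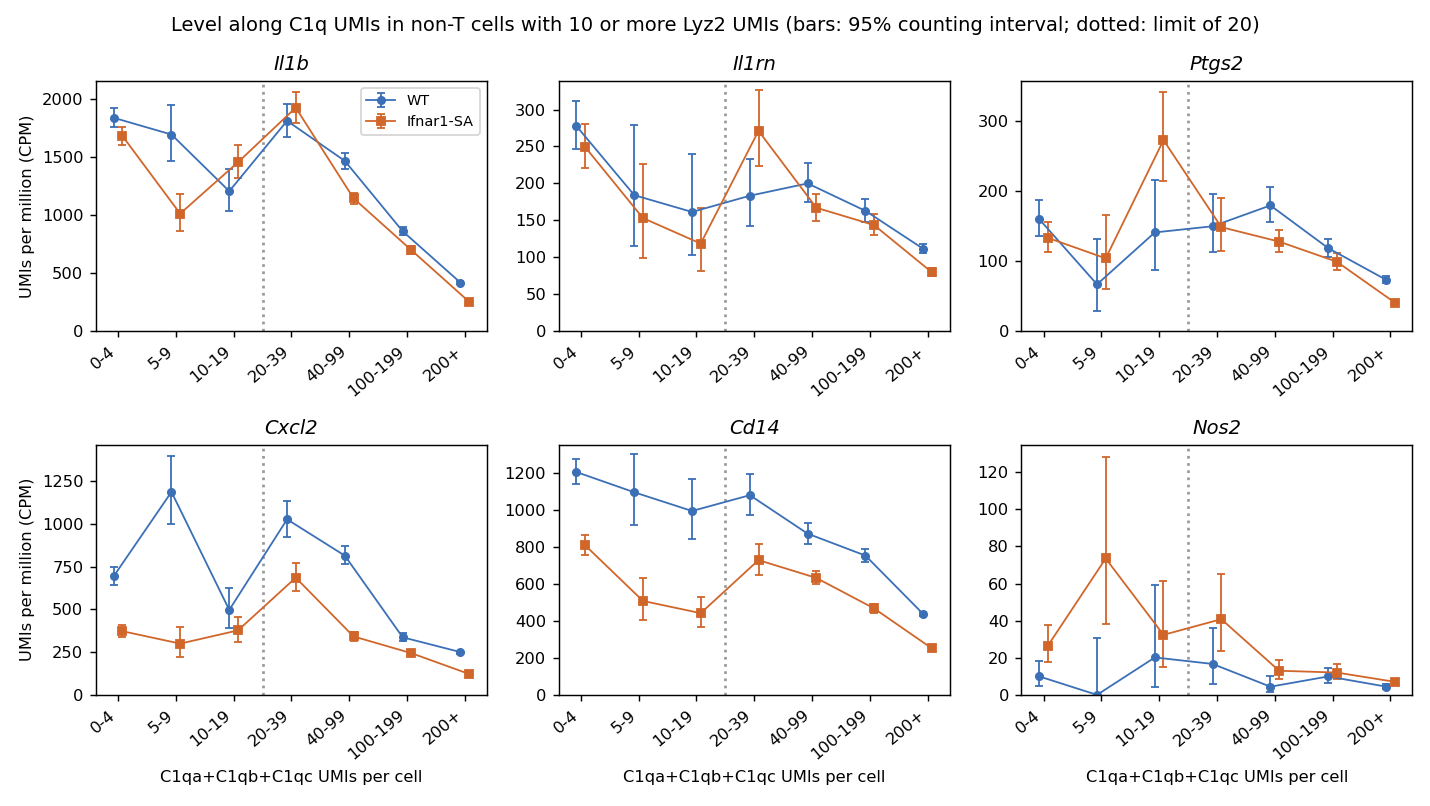
CPM of 6 of the genes in bins of C1q UMIs per cell, for WT (circles) and Ifnar1-SA (squares), with 95% counting intervals; the dotted line marks the limit of 20 between the gates. Cd14 in Ifnar1-SA lies below WT in 7 of 7 bins, while the Il1b lines cross.

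Cells with Xist UMIs and cells with Y-linked UMIs of the Ifnar1-SA library were set beside the WT cells with Xist UMIs. In macrophages Cxcl2 stood at 320 CPM in WT cells with Xist, 167 CPM in Ifnar1-SA cells with Xist and 174 CPM in those with Y-linked UMIs. Cd14 stood at 533, 346 and 218 CPM and Il1b at 601, 484 and 324 CPM in the same order. Both groups of Ifnar1-SA cells, which carried sex-linked UMIs of that kind alone, were thus below WT for these 3 genes. For Cd14 and Il1b the Y-linked cells, whose median depth was 6255.5 against 12202 UMIs, were the lower of the pair. The 88 Ifnar1-SA macrophages with both kinds of UMI did not all follow. They stood at 319 CPM for Cxcl2, close to WT, at 408 for Cd14, and at 640 for Il1b, above WT. The 274 with neither kind stood at 144, 251 and 395 CPM. That was above the 45 WT macrophages with neither kind, at 99.2, 187 and 225 CPM, so in this class the direction was reversed. The median depth of these cells was 4656.5 UMIs in Ifnar1-SA and 2410 in WT.

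In monocytes the same split gave 724, 303 and 351 CPM for Cxcl2 and 1260, 804 and 763 CPM for Cd14. Nos2 stood at 9.78, 24.0 and 37.0 CPM, from 10, 20 and 8 UMIs. Ptgs2 stood at 158, 148 and 301 CPM, so that its monocyte level was above WT in the Ifnar1-SA cells with Y-linked UMIs and not in those with Xist. Whether the split reflects sex or separate animals cannot be told apart, since the labels do not tie cells to mice.

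**Figure D5:**
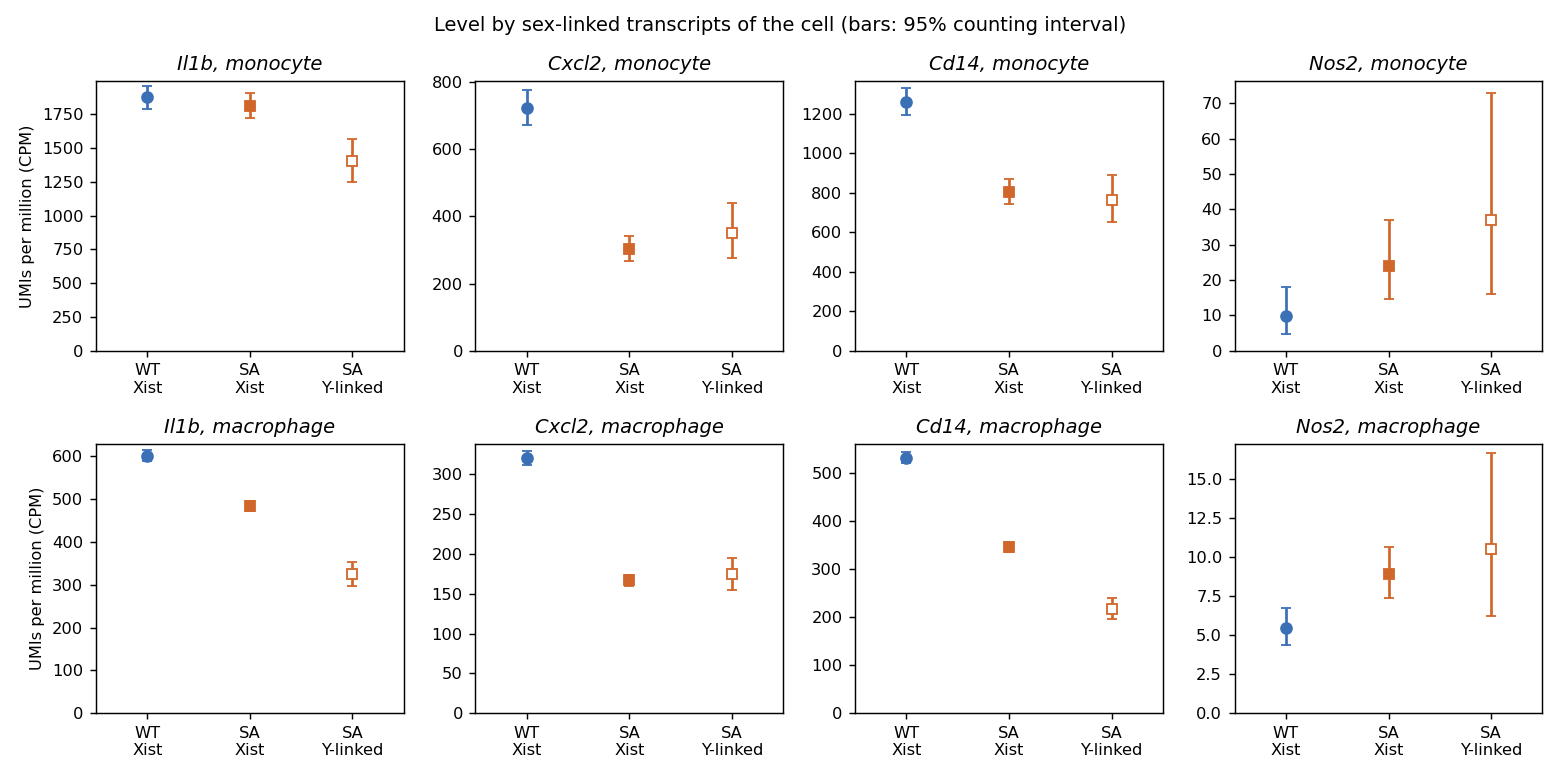
CPM of Il1b, Cxcl2, Cd14 and Nos2 in monocytes (top) and macrophages (bottom) of WT with Xist UMIs (blue), Ifnar1-SA with Xist UMIs (filled orange) and Ifnar1-SA with Y-linked UMIs (open orange), with 95% counting intervals. Cxcl2 and Cd14 lie below WT in both Ifnar1-SA groups of both gates.

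Several of the genes were found in the same cells. Over macrophages of 1 library, Pearson's r of log2(1 + UMIs per 10000) was 0.46 in WT and 0.50 in Ifnar1-SA for Il1b with Cd14, 0.39 and 0.33 for Cxcl2 with Cd14, and 0.36 and 0.33 for Il1b with Ptgs2. Over 161 WT and 246 Ifnar1-SA monocytes it was 0.40 and 0.18 for Cxcl2 with Cd14 and 0.36 and 0.30 for Il1b with Cd14. The cells share a library and differ in depth and C1q content, so these values describe the cells only.

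Over the 1459 WT and 1905 Ifnar1-SA cells of both myeloid gates and 6337 other genes, Il1b was most like Ly6c2 (r 0.45 and 0.54), Plac8 and Thbs1, of which Ly6c2 is used by the monocyte gate. Cd14 was most like Plaur (0.44 and 0.42), the urokinase receptor, and the transcription factors Cebpb and Atf3. Cxcl2 was most like the immediate early gene Ier3 (0.35 and 0.30), Ifrd1 and Hspa1a, and Ptgs2 most like Vegfa (0.33 and 0.33), Ifrd1 and Nfil3. Nos2 was most like Upp1 (0.30 and 0.27), Bnip3 and the arginine transporter gene Slc7a2. Il1rn was most like AA467197, Plaur and Vegfa, Nlrp3 most like Hspa1b, Pde4b and Ifrd1, and Il18 most like Zbp1, Fcgr1 and Isg15, all with r of 0.34 or less. The values for Il1a and Cxcl1 were under 0.28 and rest on few UMIs.

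Immediate early and heat shock genes, which are known to rise when tissue is dissociated, are among these neighbours. The list of 10 such genes summed to 8191 CPM in WT and 7958 in Ifnar1-SA monocytes, to 4703 and 4034 CPM in macrophages and to 2948 and 2397 CPM in tumour-like cells, with log2 ratios of -0.04, -0.22 and -0.30. The monocyte sum joined members that differed in opposite directions, with Jun at 0.98, Ier2 at 0.74 and Fos at 0.52 against Hspa1a at -0.58 and Hspa1b at -0.37. All 10 entered in both myeloid gates and 9 in tumour-like cells, and none was at 0 UMIs in any gate. In monocytes 2 were past 1.5-fold higher, against 7.7% of all genes, and none lower, against 2.73%. None was past it in macrophages, against 2.14% of all genes in either direction. In tumour-like cells 1 was past it higher, against 0.25%, and 2 lower, against 1.18%. The part of this list in the lower Cxcl2 and Cd14 was not tested.

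The other genes of these pathways, in 9 lists of 6 to 12 genes, mostly stayed within 1.5-fold. Their counts stand beside the shares of all genes given above, 7.7% higher and 2.73% lower in monocytes, 1.14% and 1% in macrophages, and 0.25% and 1.18% in tumour-like cells. Among the receptors and binding proteins of IL-1 and IL-18, 2 of 8 entered in monocytes and 1 was past it higher, Il18bp, which encodes the soluble trap of IL-18, at 62.4 CPM in WT and 126 in Ifnar1-SA (log2 ratio 1.01). The decoy receptor gene Il1r2 stood at 52.5 and 51.4 CPM in monocytes. The signalling receptor gene Il1r1 had 0 and 1 UMIs in monocytes, 5 and 12 in macrophages and 8 and 17 in tumour-like cells. In tumour-like cells Il1rl1, which encodes the receptor of IL-33, was past 1.5-fold lower, at 341 and 201 CPM (log2 ratio -0.76), as 1 of 3 that entered. None of the 8 IL-1 signalling genes was past 1.5-fold in any gate, with 3 or 4 entering.

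Of 11 inflammasome and processing genes, 9 entered in monocytes and 2 were past 1.5-fold higher in Ifnar1-SA, the DNA sensor gene Aim2 at 36.2 and 62.5 CPM and Txnip at 76.9 and 118 CPM. The list's median log2 ratio in monocytes was 0.14, and 7.7% of all genes there were past 1.5-fold higher. In macrophages 9 and in tumour-like cells 6 entered and none was past it. Casp1, whose product cleaves the precursors of IL-1β and IL-18, stood at 127 and 115 CPM in monocytes and 84.6 and 92.2 CPM in macrophages. All 12 genes of the NF-κB loop entered in both myeloid gates, with medians of -0.01 and 0.10, and 1 was past 1.5-fold, Tnip1, higher in Ifnar1-SA monocytes at 23.5 and 42.6 CPM. Nfkbia, the gene of the NF-κB inhibitor, stood at 241 and 231 CPM in monocytes and 157 and 162 CPM in macrophages.

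In macrophages the partners of CD14 in lipopolysaccharide recognition did not show its difference at that size, while the monocyte values could not decide this. Of 10 genes of this list, 5 entered in monocytes, 6 in macrophages and 1 in tumour-like cells, and none was past 1.5-fold. The list's median log2 ratio was -0.28 in monocytes and 0.08 in macrophages, beside 0.09 and 0.07 over all genes. Tlr4 stood at 27.1 CPM in WT and 21.3 in Ifnar1-SA monocytes (log2 ratio -0.35, interval -1.14 to 0.44) and at 29.7 and 31.2 CPM in macrophages (log2 ratio 0.07, interval -0.10 to 0.25). Ly96, the gene of MD-2, stood at 74.6 and 62.7 CPM in macrophages. The monocyte interval of Tlr4 included the Cd14 ratio of -0.68. The difference between Cd14 and these genes was not tested.

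In the list of other CXC chemokines and the receptor CXCR2, only Pf4 entered in the myeloid gates, at 670 and 495 CPM in macrophages. It was not past 1.5-fold, and its level is not that of the chemokines that act through CXCR2. Cxcl3, a close relative of Cxcl1 and Cxcl2, had 44 (WT) and 5 (Ifnar1-SA) UMIs over all macrophages, below the filter. The receptor gene Cxcr2 itself had at most 21 UMIs in any gate. Among 10 prostaglandin genes Ptgs1, the gene of COX-1, was past 1.5-fold lower in macrophages, at 36.9 and 24.2 CPM, as 1 of 6 that entered, and no other was past it in a gate.

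Among 8 genes of nitric oxide and arginine use, 2 of 7 that entered in macrophages were past 1.5-fold lower in Ifnar1-SA, against 1% of all genes there, and the list's median log2 ratio was -0.04. They were Arg1, whose product consumes the arginine that nitric oxide synthase also uses, at 337 and 178 CPM, and the transporter gene Slc7a2, at 25.2 and 13.8 CPM. In monocytes all 8 entered and none was past it, with Arg1 at 464 and 343 CPM. Of 12 other inflammatory cytokine genes, 5 entered in each myeloid gate, and 1 was past 1.5-fold, the chemokine gene Ccl3, at 203 and 133 CPM in monocytes. Tnf stood at 26.5 and 25.5 CPM in macrophages.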

How the data were processed

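Droplet single-cell RNA sequencing was done on 1 WT and 1 Ifnar1-SA library, grouped by the genotype in the labels, which give no replicate numbers. The deposited values are raw UMI counts per gene and barcode that the authors made with Cell Ranger 4 (per the file headers) on mm10 (per the submitters' processing notes), with an annotation release not given in the sources used here. Neither matrix had been filtered for cells, so the cell filters are those of the re-analysis. No doublet caller was run; the limit on T cell UMIs, an alternative without the 5% of cells with the most UMIs and one with cells in exactly 1 gate stand in its place. T cells (at least 5 UMIs of Cd3e, Cd3g and Trac, under 5 of C1q and under 10 of Lyz2) numbered 1544 and 1413.

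UMIs were summed per gate and library and scaled to CPM, with exact Poisson intervals. Intervals of log2 ratios treat the split of a gene's UMIs between libraries as binomial (exact), and shares have exact Clopper-Pearson intervals. With 1 library per genotype there is no replicate spread, so p-values were not computed. Cells can pass more than 1 gate. Genes whose cellular pattern was most like a member were the 3 with the highest r, taking the lower of the libraries, among genes with at least 200 UMIs in each library. From each pathway list, genes past 1.5-fold were named, and further ones were named after their values were seen. The 10 genes, the gates, the lists and the 16 alternatives were chosen with earlier results of these data known, and 2 alternatives were added after the values were seen. Promoter sequences matched 8 of the 10 genes by symbol. The calculations were tested on simulated data and used Python 3.11.15, numpy 2.4.6, scipy 1.17.1, pandas 2.3.3 and matplotlib 3.10.9.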

Additional observations from a re-analysis of the deposited data

Results flagged for a closer look

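Il1b and Il1rn differed between the libraries in opposite directions in different gates. Il1b had a log2 ratio of 0.73 (interval 0.21 to 1.26) in tumour-like cells, from 49 UMIs in WT and 86 in Ifnar1-SA, and was lower in monocytes and macrophages, at -0.09 and -0.33. Il1rn had a log2 ratio of 1.19 (interval 0.17 to 2.30) in tumour-like cells, from 12 and 29 UMIs, and -0.27 in macrophages. Both tumour-like values lie below the level filter, 5 cells held 74.4% and 86.2% of the Ifnar1-SA UMIs, and with cells in exactly 1 gate the Il1rn value was -0.08. The differences between gates were not tested.

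Cxcl2 was highest of all cell groups of Ifnar1-SA outside the gates. The 433 remaining non-T cells of that library stood at 379 CPM, from 752 UMIs in 46 cells, above the 343 CPM of monocytes, and the 286 such WT cells stood at 153 CPM. The direction was thus opposite to that in the myeloid gates. The 5 highest Ifnar1-SA cells held 58.8% of these UMIs, and without them the level was 160 CPM. Among the remaining cells, those with dendritic cell markers had 1 UMI in WT and 28 in Ifnar1-SA, and those with migratory dendritic cell markers 0 and 30. Droplets with T cell UMIs that did not pass as T cells were lower in Ifnar1-SA, at 209 and 123 CPM.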

How the results depend on the processing

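Cd14 and Cxcl2 were past 1.5-fold lower in both myeloid gates in all 13 other choices of cells, and each kept its direction in all 17 alternatives, between -0.78 and -0.63 for Cd14 and -1.32 and -0.87 for Cxcl2 in monocytes and between -1.27 and -0.62 and -0.94 and -0.73 in macrophages. The -1.27 came from Ifnar1-SA cells with Y-linked UMIs against all WT cells, an alternative chosen after the values were seen, like the one without cells with 5 or more S100a8 and S100a9 UMIs. Nos2 in monocytes stayed higher in all 17, between 1.23 and 4.07, and past 1.5-fold in 12 of 13 choices of cells; the exception was the Y-linked cells. Monocyte Ptgs2 kept its direction in 14 of 17, between -0.19 and 1.01, the latter with the Y-linked cells, which also put macrophage Il1b at -0.87 and monocyte Nlrp3 at -1.23, both past 1.5-fold. No called gene changed sign, and 62 of 461 values of single genes lay outside their own interval. With no filter beyond 1 UMI the genes past 1.5-fold numbered 830 instead of 516 in the monocyte gate, 877 instead of 107 in the macrophage gate and 717 instead of 80 in the tumour-like gate. The 10 genes then gave 5 in the macrophage and 4 in the tumour-like gate. The number of genes tested at that setting is not given here, so these counts have no share of all genes beside them. They include genes of few UMIs, such as Nlrp3 in the tumour-like gate at 1 and 13 UMIs. With each cell thinned to 2000 UMIs the genes past 1.5-fold numbered 237, 251 and 148 in the monocyte, macrophage and tumour-like gates, again without the number tested. Of the 10 genes, 2 were past it in the monocyte gate and 1 in the tumour-like gate. The latter was Ptgs2, at a log2 ratio of -0.89, and it rests on 1 random draw of few UMIs. The draw used for the shares of cells held 36 Ptgs2 UMIs in 179 WT and 33 in 201 Ifnar1-SA tumour-like cells. Weighting cells equally put 851 genes past 1.5-fold in monocytes, and the Y-linked cells put 550 past it in macrophages.

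No paired analysis was possible because each genotype has 1 library and the labels give no replicate numbers, which leaves no replicate to omit. Alternatives by sex-linked UMIs were not run in the tumour-like gate, where 17 cells of each library had Xist alone. Depth limits Il1a, Nos2 and the myeloid values of Cxcl1.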
